A study of Mus musculus with 8 samples.

Results

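Imprinted genes, which are transcribed mainly from the copy inherited from 1 parent, were examined for H3K27-me3 in livers of fasted JMJD3-floxed mice. The set holds 38 genes chosen by name from 14 imprinted clusters and single loci, 34 protein-coding and 4 long noncoding (H19, Kcnq1ot1, Meg3 and Airn), out of 35325 protein-coding and long noncoding genes of GENCODE M21. All animals were male C57BL/6 mice with a floxed JMJD3 gene. They received AAV-TBG-Cre, in which the TBG promoter restricts Cre to hepatocytes, or the control virus AAV-GFP at 8 weeks of age, and were fasted for 16 h at 12 weeks after infection. Each virus had 2 H3K27-me3 ChIP-seq libraries and 2 input libraries, 8 in all. The authors deposited 1 list of enriched regions per virus, made from both replicates. The lists therefore give no value per mouse, the spread between replicates is unknown, and no test between the virus groups was possible.

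H3K27-me3 is deposited by Polycomb repressive complex 2 and removed by JMJD3 (KDM6B) and UTX, and it marks genes that are kept silent. In imprinted clusters the parental copies are told apart by DNA methylation set in the germ line at an imprinting control region, and Polycomb marks often lie on the silent, unmethylated copy of a gene. Many imprinted genes act on fetal growth, are active in fetal liver and are shut off on both copies after birth. ChIP-seq of whole liver does not separate the parental copies. Fewer cells of a type that carries the mark and less mark per cell cannot be told apart in whole liver.

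The AAV-Cre list held 59267 regions that covered 2.71% of the genome, and the AAV-GFP list held 34586 regions that covered 0.548%. The shortest region was 300 bp in AAV-Cre and 120 bp in AAV-GFP, and the median widths were 753 and 231 bp, so the 2 calls differed in breadth across the whole genome. This genome-wide difference is the background for every comparison of the lists given here, and its contribution to each was not tested. The liver label was checked with 10 hepatocyte genes, none of which had a region within 15 kb of a start site in either list, and with 10 developmental regulators of other tissues, all of which had a region in both. Kdm6b, the gene of JMJD3, had 2 AAV-Cre regions within 15 kb, the nearest at 7386 bp, and no AAV-GFP region closer than 51345 bp. Peak lists do not measure the deletion itself.

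The promoters of the genes with the strongest regions show how different the sequences under the mark were. The 250 bases before a start site are given 5′ to 3′ on the strand of the gene, from RefSeq (GRCm38.p6, the assembly that mm10 names), with each CG dinucleotide in capitals. The first 6 are from the genes whose start site lay under the region with the highest −log10 p, among promoters in the RefSeq table that do not overlap annotated untranslated sequence. The last 2, Meg3 and Igf2r, were added after the values were seen, the first as a promoter with a region in AAV-Cre only and the second as a CG-rich promoter with a region in neither list.
Igf2, chr7:142657497-142657746, reverse strand: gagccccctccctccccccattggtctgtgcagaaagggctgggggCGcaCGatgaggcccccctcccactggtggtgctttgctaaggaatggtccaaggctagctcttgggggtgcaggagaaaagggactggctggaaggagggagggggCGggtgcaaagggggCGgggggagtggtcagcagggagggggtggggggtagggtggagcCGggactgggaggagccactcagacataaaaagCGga
Grb10, chr11:12037421-12037670, reverse strand: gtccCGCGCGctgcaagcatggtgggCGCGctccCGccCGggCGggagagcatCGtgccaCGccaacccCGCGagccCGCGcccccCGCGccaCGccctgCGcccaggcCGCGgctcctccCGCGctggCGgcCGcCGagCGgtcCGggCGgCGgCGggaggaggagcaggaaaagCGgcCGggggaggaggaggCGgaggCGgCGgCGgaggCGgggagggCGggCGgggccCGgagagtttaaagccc
Ascl2, chr7:142969265-142969514, reverse strand: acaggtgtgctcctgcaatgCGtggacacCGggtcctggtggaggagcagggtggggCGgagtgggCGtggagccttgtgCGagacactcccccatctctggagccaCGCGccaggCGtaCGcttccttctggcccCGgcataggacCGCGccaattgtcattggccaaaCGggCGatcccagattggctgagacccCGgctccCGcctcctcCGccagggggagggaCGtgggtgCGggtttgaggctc
Begain, chr12:109053099-109053348, reverse strand: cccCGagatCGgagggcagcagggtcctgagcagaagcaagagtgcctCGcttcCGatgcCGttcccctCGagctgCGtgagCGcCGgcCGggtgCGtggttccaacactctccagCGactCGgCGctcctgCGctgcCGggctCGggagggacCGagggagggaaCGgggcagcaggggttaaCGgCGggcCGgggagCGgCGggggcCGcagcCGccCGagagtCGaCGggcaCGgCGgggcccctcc
Mest, chr6:30737800-30738049, forward strand: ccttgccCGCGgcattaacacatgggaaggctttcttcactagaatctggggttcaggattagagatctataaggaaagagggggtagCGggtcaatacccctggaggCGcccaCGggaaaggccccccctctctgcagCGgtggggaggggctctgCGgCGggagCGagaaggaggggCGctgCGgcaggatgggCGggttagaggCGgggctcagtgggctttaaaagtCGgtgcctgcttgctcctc
Dlk1, chr12:109452573-109452822, forward strand: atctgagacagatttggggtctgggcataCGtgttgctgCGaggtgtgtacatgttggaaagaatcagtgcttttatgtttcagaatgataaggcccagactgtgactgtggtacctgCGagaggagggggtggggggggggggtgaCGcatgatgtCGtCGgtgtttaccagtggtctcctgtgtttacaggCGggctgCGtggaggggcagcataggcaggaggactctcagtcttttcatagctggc
Meg3, chr12:109540746-109540995, forward strand: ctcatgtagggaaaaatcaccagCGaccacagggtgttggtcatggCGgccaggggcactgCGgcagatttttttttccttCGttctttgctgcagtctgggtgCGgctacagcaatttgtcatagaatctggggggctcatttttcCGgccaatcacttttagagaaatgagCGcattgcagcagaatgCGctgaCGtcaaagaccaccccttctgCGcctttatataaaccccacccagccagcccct
Igf2r, chr17:12769707-12769956, reverse strand: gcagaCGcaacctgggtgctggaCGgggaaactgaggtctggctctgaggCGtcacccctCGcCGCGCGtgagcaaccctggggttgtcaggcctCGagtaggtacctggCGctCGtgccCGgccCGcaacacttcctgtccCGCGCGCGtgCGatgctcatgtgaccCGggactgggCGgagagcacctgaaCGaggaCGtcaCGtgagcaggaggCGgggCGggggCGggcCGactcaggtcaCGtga

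The Igf2 sequence held 6 CG dinucleotides, while that of Grb10 held 40 and that of Begain, at a RefSeq start site inside the gene, held 31. The count also varied within a gene. Other Igf2 promoters that touched regions of both lists held 22, 10 and 1, and another such Grb10 promoter held 8. The Mest sequence held 14, Ascl2 19, Dlk1 8 and Meg3 10. The Igf2r sequence held 27 and touched no called region of either list, so a high CG count occurred with and without a region. RefSeq promoters were matched for 32 of the 38 genes, 55 promoters in all, with a median of 14 CG in the 250 bases, against 6 over 32851 promoters of all genes. The 33 promoters that touched a region had a median of 14 and the 22 that touched none had 12.5. The hexamer TGCCGC, the core of the methylated motif bound by the zinc finger protein ZFP57 at imprinting control regions, was searched for on both strands. It was present in 8 of the 55 promoters (14.5%) and in 8.68% of all promoters, and the Mest sequence above held 2 copies and the Meg3 sequence 1. Some of the 55 promoters overlap, and overlapping Mest entries with the same copies were counted separately. The hexamer itself holds a CG, and the part of the higher CG count in its share was not tested. A match is only a description of these letters.

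Most of the imprinted genes carried an H3K27-me3 region close to a start site in the AAV-Cre list, and in AAV-GFP as many genes had such a region within 15 kb as had none. Regions within 15 kb of a start site were found at 27 of the 38 genes in AAV-Cre (71.1%, Wilson 95% interval 55.2 to 83.0) against 39.2% of all genes, and at 19 in AAV-GFP (50%, 34.8 to 65.2) against 25% of all genes. Within 1 kb the counts were 24 (63.2%) in AAV-Cre against 20.9%, and 16 (42.1%) in AAV-GFP against 13.4%. Over the gene body they were 25 (65.8%) against 26%, and 19 (50%) against 17.1%. The intervals cover counting error only and treat genes as independent, although neighbours such as Peg10 and Sgce share regions. The imprinted genes also had more start sites (median 2 against 1) and were longer (median 33100 bp against 10500 bp) than all genes, and the part of these differences in the counts was not tested. Restricted to protein-coding genes, 70.6% of 34 members and 41.5% of all had a region within 15 kb in AAV-Cre, and 52.9% and 27.9% in AAV-GFP.

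As over all genes, the imprinted genes with a region in a single list were nearly all in AAV-Cre. Within 15 kb, 18 genes had a region in both lists and 10 in neither. Only 25% of all genes had an AAV-GFP region at this distance, so the share of all genes with both cannot exceed that. The share of all genes with neither is not given, so the count of 10 has no background beside it. The 9 genes with a region in AAV-Cre only (23.7%, against 15.4% of all genes) were Tssc4, Meg3, Rtl1, Zim1, Peg3, Usp29, Ppp1r9a, Ndn and Airn, and the only gene found in AAV-GFP alone was Snrpn (2.63%, against 1.21%). Within 1 kb, 8 genes were found in AAV-Cre only (21.1%, against 7.76%), namely Begain, Meg3, Zim1, Peg3, Usp29, Ppp1r9a, Mkrn3 and Airn, and 0 in AAV-GFP only (against 0.238%). When the lists were reduced to 34586 top peaks each, 5 genes remained in AAV-Cre only, without Peg3, Usp29 and Airn. Over the body, 7 genes were found in AAV-Cre only (18.4%, against 9.55%) and again Snrpn in AAV-GFP only (2.63%, against 0.708%). With equal numbers of peaks the body count in AAV-Cre only was 4, and at a q-value of 0.05 it was 12. The Wilson intervals of these shares in AAV-Cre only were 13 to 39.2% within 15 kb, 11.1 to 36.3% within 1 kb and 9.22 to 33.4% over the body. Those within 15 kb and over the body contain the shares of all genes, 15.4% and 9.55%. For the main lists, the interval within 1 kb lies above the 7.76% of all genes, but Peg3 and Usp29 count there through a shared region. No share of all genes is given for the reduced lists, so the counts of 5, 4 and 12 have no background beside them.

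**Figure D1:**
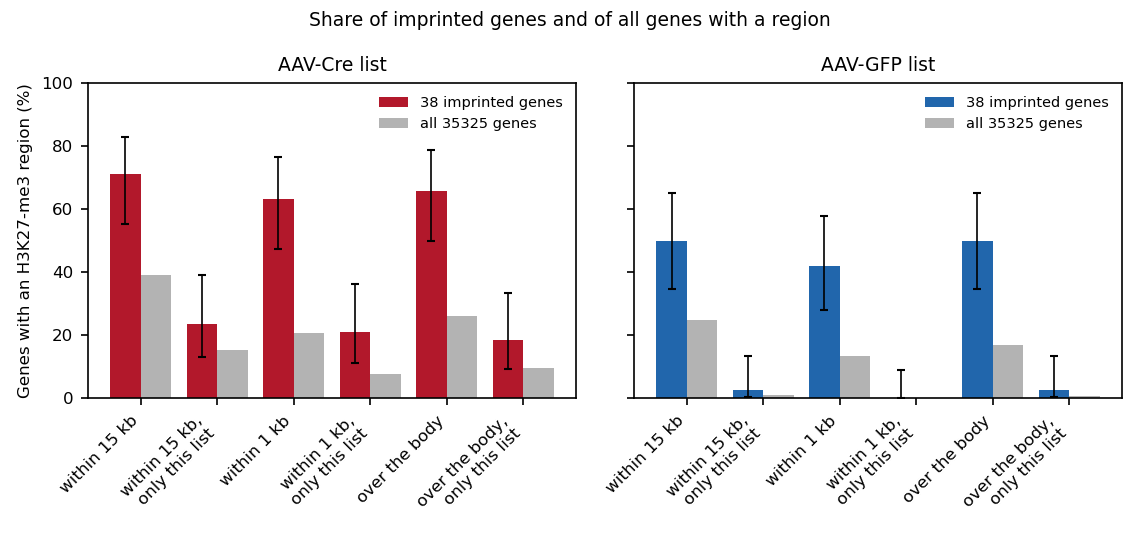
Percent of genes with an H3K27-me3 region within 15 kb or 1 kb of a start site or over the gene body, for the 38 imprinted genes (coloured bars, with Wilson 95% intervals for counting error) and for all 35325 genes (grey bars), in the AAV-Cre list (left) and the AAV-GFP list (right). The imprinted genes stand above all genes in both lists for each window, with 71.1% against 39.2% within 15 kb in AAV-Cre and 50% against 25% in AAV-GFP.

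The distance from a start site to the nearest region had a median of 31.5 bp in AAV-Cre and 15390 bp in AAV-GFP over the imprinted genes, and of 30540 and 67860 bp over all genes. By the copy that is transcribed, as known from mouse genetics, 14 of the 19 paternally expressed genes had a region within 15 kb in AAV-Cre and 10 in AAV-GFP. Among the 16 maternally expressed genes the counts were 10 and 6, and the shares of all genes were 39.2% and 25%. The 3 genes whose expressed copy differs by tissue or transcript (Begain, Grb10 and Gnas) had a region in both lists. The shares of the paternal and maternal genes differed by few genes, and in bulk liver a region at a gene may lie on either copy.

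**Figure D2:**
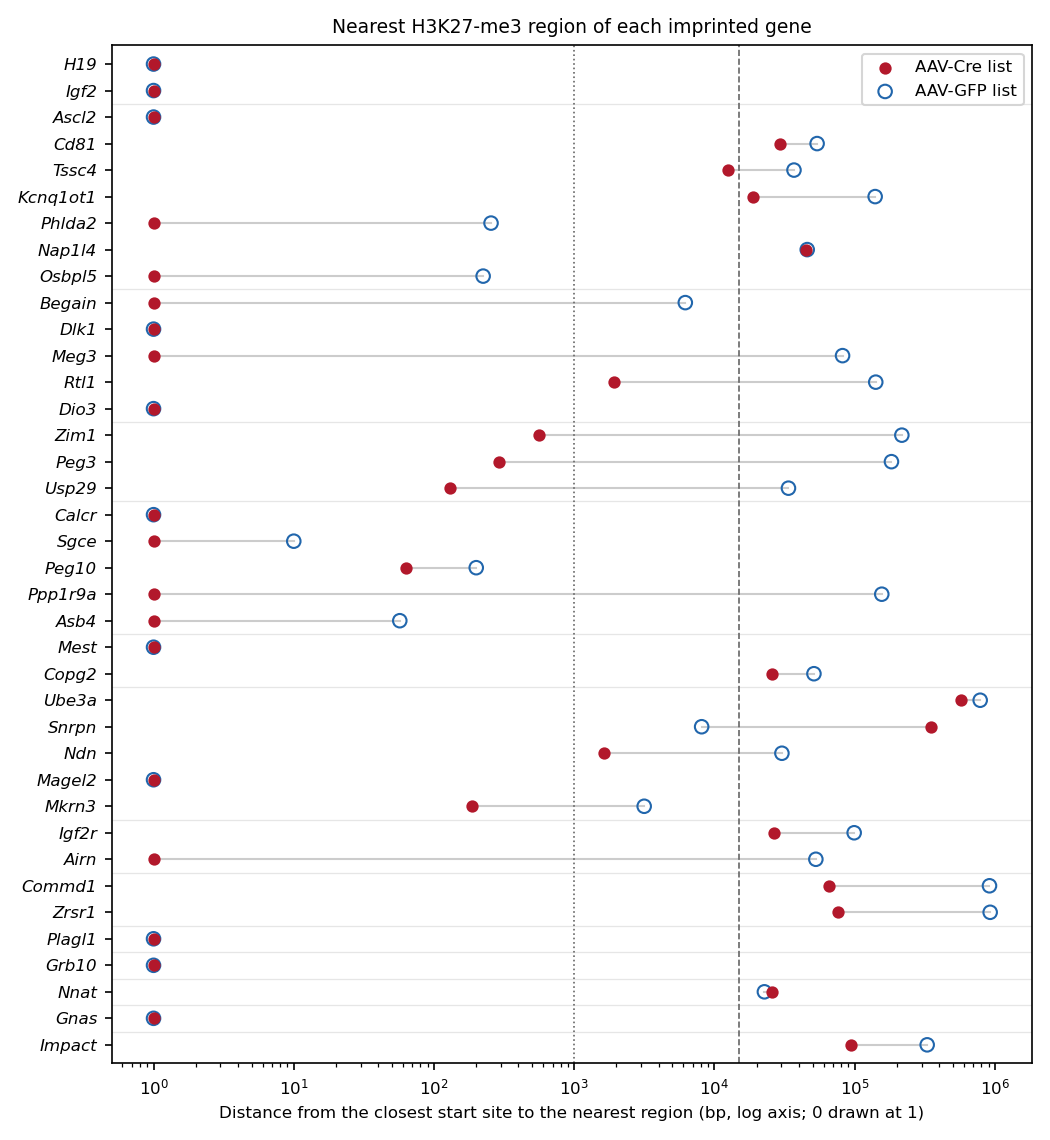
Distance in bp (log axis, with 0 drawn at 1) from the closest start site of each imprinted gene to the nearest region of the AAV-Cre list (filled) and of the AAV-GFP list (open), with genes grouped by cluster. The dotted line is at 1 kb and the dashed line at 15 kb. For Snrpn and Nnat alone the AAV-GFP region was the closer.

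The regions at the imprinted genes, within 15 kb of a start site or over a body, were 120 in AAV-Cre and 123 in AAV-GFP. Their median width was 908 bp in AAV-Cre, against 753 bp over the list, and 255 bp in AAV-GFP, against 231 bp. A q-value of 0.05 or lower was reached by 113 of the 120 AAV-Cre regions (94.2%, against 88.6% of that list) and by 62 of the 123 AAV-GFP regions (50.4%, against 46.8%). Of the AAV-GFP regions 114 (92.7%) overlapped an AAV-Cre region, against 86.4% of the whole list. Of the AAV-Cre regions 45 (37.5%) overlapped an AAV-GFP region, against 24.2%. By length, 95.4% of the AAV-GFP bases in the clusters lay inside AAV-Cre regions, which made up 26.7% of the AAV-Cre bases there. Igf2-H19 alone held 48703 of these 98048 AAV-GFP bases. The share inside AAV-Cre regions was 43.2% in the Snrpn cluster and 0% in the Igf2r cluster. It was 88% or more in each other cluster with AAV-GFP regions. The AAV-GFP regions at these genes were thus mostly narrower pieces of intervals that the AAV-Cre list also held. Most regions of the whole AAV-GFP list (86.4%) likewise overlapped an AAV-Cre region.

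The 14 clusters and single loci, each taken from the first to the last base of its genes with 15 kb on either side, differed widely in how much of their length lay in regions. They are given in the order of the AAV-Cre list. Together they spanned 8504 kb, of which 4.12% lay in AAV-Cre regions and 1.15% in AAV-GFP regions. The Igf2-H19 cluster was the most covered in both lists, at 79.2% and 40.2%. Gnas (20.4% and 5.62%) and Grb10 (17.5% and 6.77%) followed. The Kcnq1ot1 cluster (8.18% and 1.08%), Dlk1-Meg3 (5.44% and 0.973%), Plagl1 (5.21% and 1.17%), Mest (4.97% and 0.955%) and Igf2r (4.82% and 0.0814%) came next. Peg10 (1.71% and 0.253%), Peg3 (1.37% and 0.233%) and Snrpn (0.454% and 0.154%) lay below the genome's 2.71% and 0.548%. In AAV-GFP alone the Igf2r cluster, with 1 region, also lay below the genome. No region of either list lay in the spans of Zrsr1, Nnat or Impact.

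**Figure D3:**
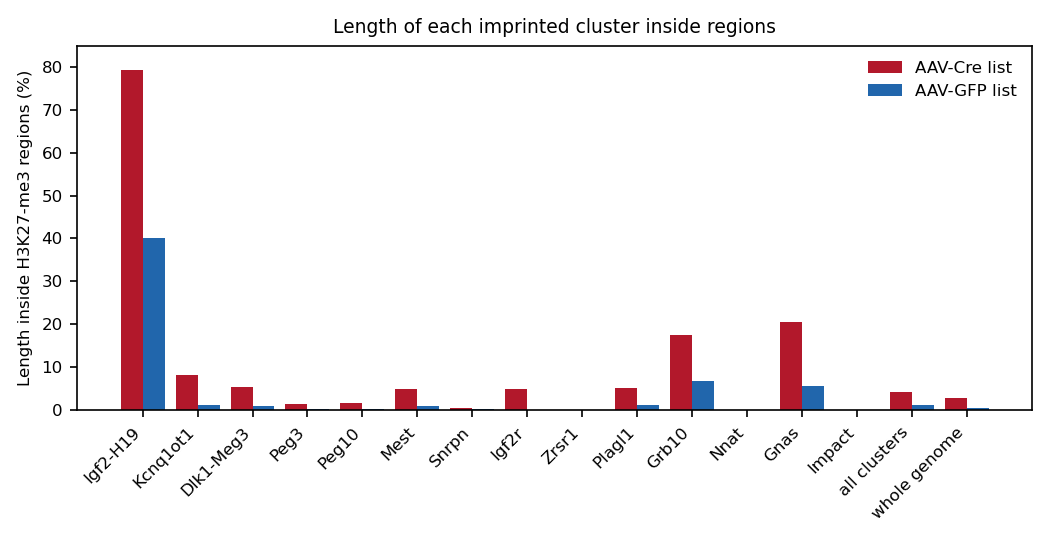
Percent of the length of each imprinted cluster or single locus, of all of them together and of the whole genome that lay inside H3K27-me3 regions of the AAV-Cre list (red) and the AAV-GFP list (blue). Igf2-H19 stood at 79.2% and 40.2%, against 2.71% and 0.548% of the genome.

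Igf2 encodes insulin-like growth factor 2, a paternally expressed fetal growth factor, and H19 is a maternally expressed noncoding RNA that shares its enhancers. Both are abundant in fetal liver and silent in adult mouse liver. The cluster held a nearly continuous domain. A single AAV-Cre region of 18266 bp, chr7:142643391-142661656, had the highest −log10 p of all regions at imprinted genes (84.37, fold 14.24 over input) and covered start sites and exons of Igf2. A second, chr7:142662687-142670752 (8066 bp, −log10 p 39.95), covered the remaining 5′ part, and together they took in 93.6% of the Igf2 body. The AAV-GFP list covered 81.2% of the same body, but in 11 regions, of which the strongest was chr7:142656949-142661367 (4419 bp, −log10 p 22.67). The other AAV-GFP regions within 1 kb of an Igf2 start site were 2547 bp wide over a start site (−log10 p 16.73) and 3152 bp wide at 638 bp from one (−log10 p 13.26). Thus the gene was marked over most of its length in both lists, with the AAV-GFP mark broken into shorter pieces. Across the cluster there were 24 AAV-Cre and 69 AAV-GFP regions, and all 48703 bases of the AAV-GFP regions lay inside AAV-Cre regions.

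H19 was covered over 99.7% of its body by an AAV-Cre region of 4620 bp (chr7:142575538-142580157, −log10 p 16.34) and over 20.9% by an AAV-GFP region of 896 bp at its start (chr7:142577598-142578493, −log10 p 8.49). The next AAV-Cre region, chr7:142580906-142582832 (−log10 p 8.11), began 2763 bp upstream of the H19 start, on the side where the imprinting control region of the cluster lies, and it overlapped an AAV-GFP region. H19 therefore had the mark at its start in both lists, and along its whole length in AAV-Cre only.

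**Figure D4:**
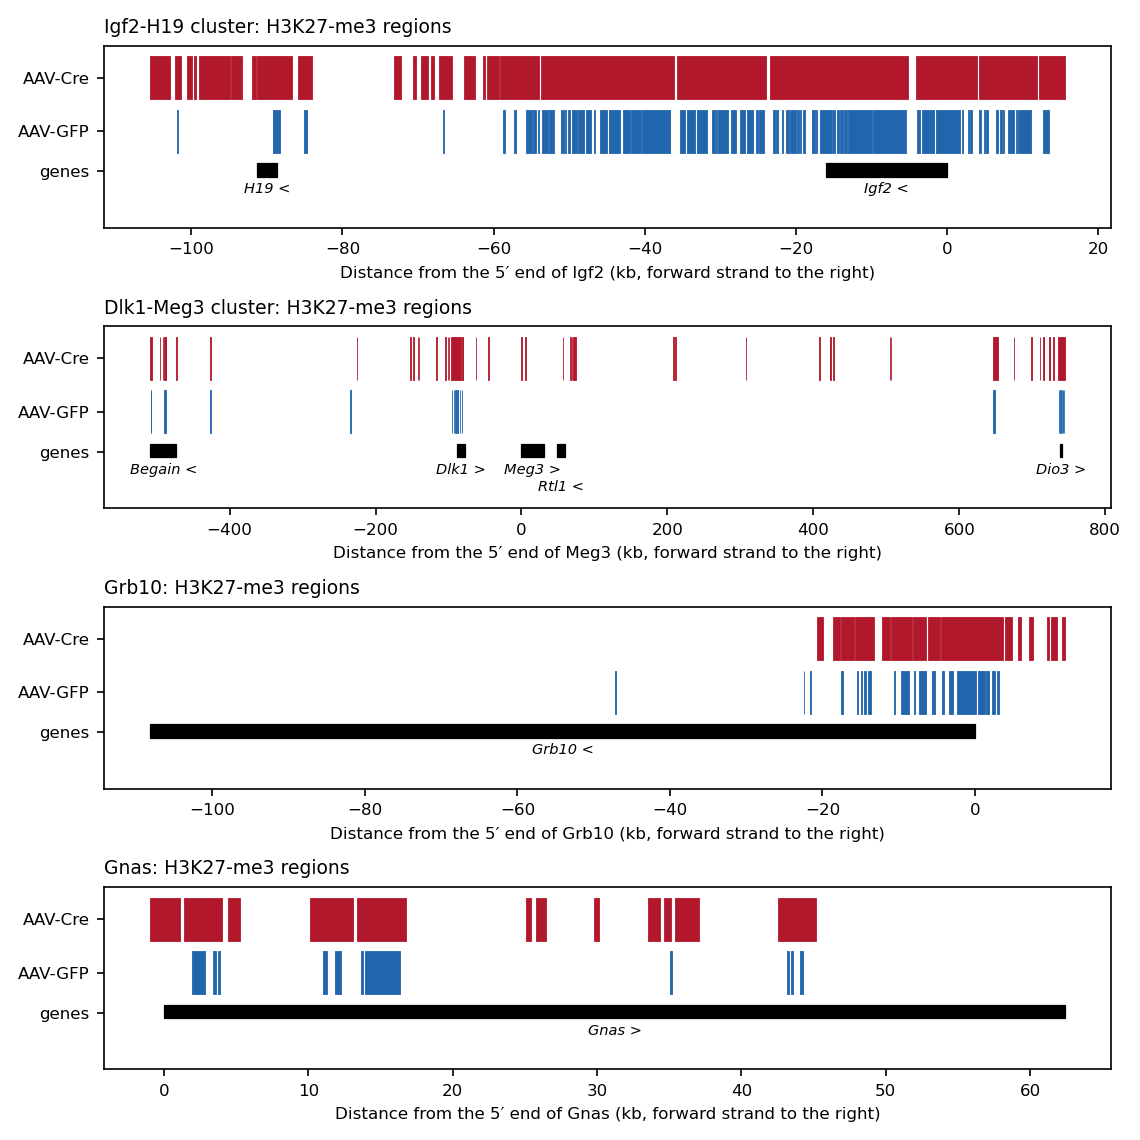
Regions of the AAV-Cre list (red) and the AAV-GFP list (blue) and the bodies of the imprinted genes (black, with an arrowhead for the strand) in 4 loci, in kb from the 5′ end of Igf2, Meg3, Grb10 or Gnas. The Igf2 body lay in an almost unbroken AAV-Cre domain and in 11 AAV-GFP regions, while Meg3 and Rtl1 had AAV-Cre regions only.

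The Kcnq1ot1 cluster is silenced on the paternal copy by the noncoding RNA Kcnq1ot1, which in the embryo is accompanied by H3K27-me3 over its neighbours. Here regions were called at some target genes and not at the start of Kcnq1ot1. Ascl2, a transcription factor of trophoblast and intestinal stem cells, had an AAV-Cre region of 3998 bp (chr7:142967039-142971036, −log10 p 43.38) and an AAV-GFP region of 2046 bp (chr7:142967969-142970014, −log10 p 10.93), both over its start, and a 303 bp AAV-GFP region at 927 bp (−log10 p 3.66, q 0.107). Phlda2, a brake on placental growth, had an AAV-Cre region over 95% of its body (chr7:143501626-143503789, −log10 p 27.05), and an AAV-GFP region of 198 bp at 255 bp from its start (−log10 p 3.20, q 0.247). Osbpl5, an oxysterol-binding protein, had an AAV-Cre region over an internal start site (chr7:143739452-143742691, −log10 p 5.65) and a 124 bp AAV-GFP region inside it (−log10 p 3.40, q 0.181). At these 3 genes the lists pointed to the same place, but for Phlda2 and Osbpl5 the AAV-GFP region did not reach a q-value of 0.05.

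The other 4 of the 38 genes in this cluster had no region within 1 kb of a start site. Tssc4 counted as marked in AAV-Cre only through a region 12465 bp away that lay over an exon of Trpm5 (−log10 p 5.34). The nearest AAV-Cre region to the Kcnq1ot1 start was 18730 bp away and the nearest AAV-GFP region 139830 bp away, and the AAV-Cre region of 435 bp in the body of this transcript lay 70627 bp from its start, in an intron of Kcnq1 (−log10 p 6.52). Cd81, a tetraspanin of the cell surface, and Nap1l4, a histone chaperone, had no region within 15 kb or over the body. For Cd81 the distances to the nearest AAV-Cre and AAV-GFP regions were 29493 and 53908 bp, and for Nap1l4 they were 45039 and 45835 bp.

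In the Dlk1-Meg3 cluster, the paternally expressed coding genes Dlk1 and Dio3 had the mark in both lists. The maternal noncoding gene Meg3 and the paternally expressed coding gene Rtl1 had regions within 15 kb in AAV-Cre only. Dlk1, a Notch-related membrane ligand of fetal liver and preadipocytes, had an AAV-Cre region of 5026 bp (chr12:109451943-109456968, −log10 p 21.62) and an AAV-GFP region of 1292 bp (chr12:109452665-109453956, −log10 p 16.15) over its start, with a second AAV-GFP region at 406 bp (−log10 p 5.53). Dio3, the deiodinase that inactivates thyroid hormone, lay wholly inside an AAV-Cre region of 10200 bp (chr12:110275697-110285896, −log10 p 27.15), and 79.3% of its body lay in 3 AAV-GFP regions. The strongest was over its start (chr12:110278716-110279673, −log10 p 10.65), with others at 553 bp (−log10 p 8.23) and 1828 bp (−log10 p 9.13) from a start site. Begain, a gene of neuronal synapses, had its strongest regions within the gene, chr12:109050706-109053890 in AAV-Cre (−log10 p 36.79) and chr12:109051796-109053235 in AAV-GFP (−log10 p 18.50). They lay 5537 and 6192 bp from the closest GENCODE start site, over the RefSeq start site shown above. The start site of the full-length gene carried a region in AAV-Cre only (chr12:109066945-109069042, −log10 p 6.83).

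Meg3 had 2 AAV-Cre regions over start sites, chr12:109540565-109542137 (fold 5.60, −log10 p 16.34) and chr12:109546175-109546723 (−log10 p 3.07), while no AAV-GFP region came closer than 81863 bp. Rtl1, a retrotransposon-derived gene of the placenta read on the opposite strand, had 6 AAV-Cre regions within 15 kb, the nearest in its intron at 1925 bp (−log10 p 7.46) and the strongest over an intron of the noncoding Rian (−log10 p 9.81). From Rtl1 to the closest AAV-GFP region it was 141188 bp. Both genes thus had regions in AAV-Cre only, with −log10 p values from 3.02 to 16.34.

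The Peg3 cluster held few regions, and those at start sites were in AAV-Cre only. Peg3, a zinc finger protein, and Usp29, a ubiquitin-specific peptidase, start next to each other on opposite strands and share a 519 bp AAV-Cre region at 292 and 130 bp from their starts (−log10 p 4.32), with a second at 1126 bp from the Usp29 start (−log10 p 8.55). Zim1, a zinc finger gene, had an AAV-Cre region 562 bp from its start (−log10 p 4.50). No AAV-GFP region was closer than 182745 bp to Peg3 or 216716 bp to Zim1. The strongest region of the cluster was in an intron of Usp29, 32608 bp from a start site of that gene, at chr7:6912678-6914994 (−log10 p 25.16 in AAV-Cre). It held the only AAV-GFP region of the cluster (−log10 p 3.44, q 0.166).

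In the Peg10 cluster the 5 genes had a region near a start site in AAV-Cre, and 4 of them also in AAV-GFP. Peg10, a retrotransposon-derived gene needed in the placenta, and Sgce, epsilon-sarcoglycan, are read in opposite directions from a shared promoter. The AAV-Cre region chr6:4745635-4747243 (−log10 p 28.97) covered the Sgce start and ended 63 bp from that of Peg10, and the AAV-GFP region chr6:4746476-4747106 (−log10 p 10.90) lay inside it. Calcr, the calcitonin receptor, had AAV-Cre and AAV-GFP regions over start sites (−log10 p 14.21 and 8.86), and a second AAV-GFP region over another start site (−log10 p 4.24). Asb4, an ankyrin repeat and SOCS box protein, had 8 AAV-Cre and 6 AAV-GFP regions within 15 kb, the strongest at its first start site (−log10 p 16.34 and 12.57). At its second start site the AAV-Cre region had a −log10 p of 12.38, and the AAV-GFP region, at 636 bp, had 2.45 (q 0.979). Ppp1r9a, which encodes neurabin, was the exception. Its start lay in a GC-rich region (70.3% GC) of the AAV-Cre list only (chr6:4902666-4904014, −log10 p 7.56), while the closest AAV-GFP region was 155868 bp from a start site. A further AAV-GFP region lay in the gene body, 232346 bp from a start (−log10 p 2.45, q 0.979).

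Mest, a paternally expressed hydrolase of mesoderm and fetal fat, had regions over start sites in both lists. The strongest were chr6:30735162-30740132 in AAV-Cre (4971 bp, −log10 p 30.93) and chr6:30737057-30738599 in AAV-GFP (1543 bp, −log10 p 13.23). A further start site had an AAV-Cre region over it (2815 bp, −log10 p 11.63) and an AAV-GFP region at 251 bp (242 bp, −log10 p 4.24). Its neighbour Copg2, a coat protein of Golgi vesicles that overlaps the end of Mest, had no region within 15 kb or over its body, with the nearest at 25550 bp (AAV-Cre) and 51174 bp (AAV-GFP).

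The Snrpn cluster, the mouse counterpart of the Prader-Willi and Angelman region, had weak and scattered regions. Magel2, a gene of the MAGE family, had the only regions over a GENCODE start site of these genes, chr7:62376181-62377951 in AAV-Cre (−log10 p 12.25) and a 370 bp region in AAV-GFP (−log10 p 5.96), followed at 300 bp by a weaker AAV-GFP region (−log10 p 3.16, q 0.267). Mkrn3, a makorin ring finger gene, had AAV-Cre regions at 188 and 510 bp from its start (−log10 p 3.79 and 4.95) and no AAV-GFP region closer than 3152 bp. Its strongest regions within 15 kb were at 2982 bp in AAV-Cre (−log10 p 8.78), over a start of the noncoding Gm32061, and at 14259 bp in AAV-GFP (−log10 p 2.91, q 0.432). Ndn, which encodes necdin, had a 627 bp region in AAV-Cre only (−log10 p 3.48, q 0.0230), in an exon at 1622 bp from the GENCODE start site and over a RefSeq start site inside the gene. Snrpn, a splicing protein of neurons, was the only gene with AAV-GFP regions alone. Both were short (120 and 125 bp), lay in introns 8097 and 32417 bp from a start site and had a −log10 p of 3.39 with a q-value of 0.182. The nearest AAV-Cre region to Snrpn was 347311 bp away. Ube3a, a ubiquitin ligase, had no region within 15 kb, with the closest AAV-Cre region at 569348 bp and the closest AAV-GFP region at 784406 bp.

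Igf2r, the receptor that clears IGF2, and Airn, the noncoding RNA that silences it on the paternal copy, overlap on opposite strands. Airn starts in an intron of Igf2r, where an AAV-Cre region of 1625 bp (chr17:12741319-12742943, −log10 p 3.76, q 0.0124) covered a GENCODE start site of Airn. The 5′-most start, at base 12741311, lay just outside it. The strongest region in the Airn body lay over an exon of Mas1 (−log10 p 7.46). AAV-GFP had no region over either gene, and its nearest was 52810 bp from an Airn start and 99077 bp from that of Igf2r. The CG-rich Igf2r promoter shown above was 26721 bp from the nearest AAV-Cre region. This region at Airn was absent from the list when a q-value of 0.01 or lower was required.

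Among the single loci, Grb10, Gnas and Plagl1 had the mark in both lists. Grb10, an adaptor that restrains insulin and growth factor signalling, had 15 AAV-Cre and 19 AAV-GFP regions within 15 kb of its 3 start sites. The strongest covered the first start site, at chr11:12034262-12042294 in AAV-Cre (8033 bp, −log10 p 55.36) and chr11:12036277-12038871 in AAV-GFP (2595 bp, −log10 p 21.62). Around an internal start site, AAV-Cre regions lay over it (−log10 p 13.14) and at 440 bp (−log10 p 19.74), and an AAV-GFP region lay at 41 bp (−log10 p 4.62). Plagl1, a zinc finger growth suppressor, had an AAV-Cre region of 2920 bp over a start site (chr10:13089945-13092864, −log10 p 21.50), and inside it 4 AAV-GFP regions of 120 to 300 bp with −log10 p values from 2.85 to 3.92. Those within 1 kb of the start site had values of 3.70 (over the start), 3.92 and 3.33. Its strongest AAV-GFP region (226 bp, −log10 p 4.03, q 0.0524) lay in the gene body, 29594 bp from a start site, within a second AAV-Cre region (−log10 p 6.22). None of these 5 AAV-GFP regions reached a q-value of 0.05.

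Gnas encodes the stimulatory G protein alpha subunit and, from upstream start sites, further imprinted transcripts. It had 12 AAV-Cre and 11 AAV-GFP regions. Of these, the AAV-Cre region with the highest −log10 p, chr2:174294433-174297423 (20.61), lay over the start of the antisense Nespas, and the next, chr2:174297657-174301103 (19.59), over a start site of Gnas. The strongest AAV-GFP region, chr2:174298226-174300659 (2434 bp, fold 6.57, −log10 p 22.87), lay within the latter, at 367 bp from the start site, beside a weaker one at 81 bp (−log10 p 3.48). At the first Gnas start site there was a region in AAV-Cre only (chr2:174283361-174285460, −log10 p 4.33). Over some start sites farther along the gene, an AAV-Cre region of 2606 bp (−log10 p 11.01) held 3 AAV-GFP regions of 120 to 188 bp (−log10 p 3.39 to 5.06). The last Gnas promoter in the RefSeq table, downstream of this AAV-Cre region, held 29 CG and touched no region of either list. The region chr2:174298226-174300659 was the strongest of the 123 AAV-GFP regions at imprinted genes, just ahead of an Igf2 region at 22.67. In AAV-Cre an Igf2 region led. Without replicate values, the small difference in AAV-GFP does not rank these genes.

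The remaining genes had no region within 15 kb of a start site or over the body in either list. With Cd81, Nap1l4, Copg2 and Ube3a these made 8 genes. Of all genes, 39.2% had a region within 15 kb in AAV-Cre and 25% in AAV-GFP. Over the body the shares were 26% and 17.1%. Zrsr1, a splicing factor gene that sits in an intron of Commd1, had its nearest regions at 75841 bp (AAV-Cre) and 924076 bp (AAV-GFP), and Commd1 at 65464 and 913699 bp. Nnat, neuronatin, had them at 25679 and 22690 bp. Impact, a regulator of translation under amino acid starvation, had them at 93845 and 328504 bp. Over the 8 genes the nearest AAV-Cre region was between 25550 and 569348 bp away. Their absence from the lists says only that no region was called there at these unknown depths.

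At 12 of the genes (Peg3, Peg10, Mest, Plagl1, Grb10, Kcnq1ot1, Airn, Zrsr1, Nnat, Gnas, Impact and Snrpn) a promoter is known to carry germline DNA methylation on the maternal copy. This group was formed after the values were seen. Within 1 kb of a start site, 5 of them (Peg10, Mest, Plagl1, Grb10 and Gnas) had a region in both lists, 2 (Peg3 and Airn) in AAV-Cre only and 5 (Kcnq1ot1, Zrsr1, Nnat, Impact and Snrpn) in neither. Of all genes, 20.9% had such a region in AAV-Cre, 13.4% in AAV-GFP and 7.76% in AAV-Cre only. Any start site of a gene was counted, so a region found this way need not lie at the methylated promoter. At Grb10, for example, the strongest regions lay over the first start site. The genes of this group ranged from Grb10 to Nnat and Impact, which had no region within 15 kb of a start site.

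A further 45 imprinted genes or neighbours in imprinted clusters were counted in the same way. Within 15 kb, 26 of the 45 had a region in AAV-Cre (against 39.2% of all genes) and 18 of the 45 in AAV-GFP (against 25%). A region was found in AAV-Cre only at 9 of the 45 (against 15.4%), in AAV-GFP only at 1 (against 1.21%) and in neither list at 18. Within 1 kb the counts were 19 of the 45 in AAV-Cre (against 20.9%) and 15 of the 45 in AAV-GFP (against 13.4%). Taken as shares of the 45, the AAV-Cre and AAV-GFP counts lay above the shares of all genes in both windows. The highest −log10 p values near these genes in AAV-Cre were at Dlx5 (74.80, with 18.97 in AAV-GFP), a homeobox gene near the Peg10 cluster, and Rasgrf1 (49.99 and 19.50), a Ras exchange factor. Klf14 (47.74 and 25.52) and Sfmbt2 (37.79 and 8.10), both regulators of transcription, Ins2 (39.95 and 17.68), an insulin gene next to Igf2 that shares its regions, and Peg12 (31.15 and 16.37), near Mkrn3, came next. Some of these neighbours thus carried the mark in the same clusters as the 38 genes.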

How the data were processed

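H3K27-me3 ChIP-seq of liver (antibody Ab6002) had been performed by the authors, who used the AQUAS pipeline for histone ChIP-seq with a pooled input as control. The genome build was mm10, and the submitters' processing notes name bwa 0.7.13, Samtools 1.2 and Picard 1.126. MACS was the peak caller. Only peaks found in common across the replicates were kept, which gave 1 list per virus from 2 H3K27-me3 libraries. The deposited columns give a fold enrichment over input (a ratio), a −log10 p-value and a −log10 q-value of each peak. The deposited display score was not used by any script. Folds and p-values were used only within a list. The files hold no read counts, so depth per library is unknown.

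Regions were joined to GENCODE M21 genes by start sites of basic transcripts (1 kb and 15 kb windows, at least 1 bp) and by gene bodies, with Python 3.11.15, numpy 2.4.6 and pandas 2.3.3. No region extended beyond a chromosome of the reference (0 found). The search was tested on simulated regions against a direct comparison. Promoters were read from RefSeq and checked against the genome. Shares have Wilson 95% intervals. No test between viruses was made. All 38 genes were named by cluster, with, per cluster, the region of highest −log10 p of each list at a gene and those within 1 kb of a start site. The genes, lists and windows were chosen with earlier results of these data known. From a further list of imprinted genes, 1 without a single matching entry was left out, and at most 6 were named, by −log10 p. Alternatives were q-values of 0.05 and 0.01, the 34586 top peaks of each list, peaks of at least 300 bp, start sites of all transcripts, windows of 5 and 50 kb, and 200 bp of overlap. The number of columns of per-sample values left unused was 0.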

Additional observations from a re-analysis of the deposited data

How the results depend on the processing

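Of 80 values recomputed under 8 alternative settings, 69 stayed within 1.5 times the reported count or length and 11 did not. The genes in a single list within 1 kb or over the body were added to these alternatives after the data were seen. The count of 1 gene in AAV-GFP only, Snrpn, became 0 at q-values of 0.05 and 0.01 and with peaks of at least 300 bp, within 15 kb and over the body, with a 5 kb window, and with 200 bp of overlap over the body. With 34586 top peaks taken from either list, the genes in AAV-Cre only numbered 5 in place of 8 within 1 kb and 4 in place of 7 over the body, and at a q-value of 0.05 the body count was 12. Within 15 kb, the AAV-Cre count of 27 ranged from 25 to 33, the AAV-GFP count of 19 from 14 to 24, and the count in AAV-Cre only from 7 (equal numbers of top peaks) to 13 (a q-value of 0.05). At that q-value AAV-GFP lost Phlda2, Osbpl5, Snrpn, Mkrn3 and Plagl1 within 15 kb. With equal numbers of top peaks AAV-Cre lost Ndn and Airn within 15 kb, and Peg3, Usp29 and Airn within 1 kb. No paired analysis was possible because each list pools both replicates of its virus, and for the same reason leaving out each replicate was not run. Depth, the shortest callable region (300 and 120 bp) and virus cannot be told apart, since each virus has 1 list.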
